A study of Homo sapiens with 5 samples.

Results

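The SLC25 genes encode the mitochondrial carriers, and peaks at their ends were read from 5 libraries made by CUT&Tag in HepG2, an established line from a human liver tumour. In this assay a tethered transposase cuts and tags DNA where an antibody has bound, and a peak is a place with more tagged fragments than its surroundings. The members were all RefSeq protein-coding genes on hg38 whose symbols start with SLC25A, 48 of 20037 protein-coding genes, and a gene counted as occupied when a deposited peak came within 1 kb of either annotated gene end. The libraries were Flag-tagged ENL carrying the Y78A substitution, Flag-tagged wild type ENL, H3K9bhb (β-hydroxybutyrylation of histone H3 at lysine 9), H3K9cr (crotonylation) and H3K9ac (acetylation). Both ENL proteins were stably expressed in HepG2 cells per the design text, beside whatever ENL these cells make themselves, and the sources used here do not say whether the H3K9cr and H3K9ac libraries came from such cells. Each group had 1 library, so no difference between libraries had a replicate check, and no test was made. The 95% intervals given here cover counting error only. The peaks of the library labelled H3K9ac carry names that begin with ENL1, which goes against that label, and every H3K9ac value given rests on the label alone.

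Mitochondrial carriers are proteins of the inner mitochondrial membrane that exchange nucleotides, phosphate, organic acids, amino acids and cofactors between the cytosol and the matrix. In liver they feed oxidative phosphorylation, the urea cycle, gluconeogenesis, fatty acid oxidation and the export of citrate for lipid synthesis. ENL is a chromatin reader that binds acylated lysines through its YEATS domain and belongs to complexes that promote transcription elongation. Tyrosine 78 lies in the pocket that holds the acylated lysine.

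Y78A was found at 16 of the 22 carrier genes with wild type ENL (72.7%, interval 51.8 to 86.8), beside 49.8% of all such genes. Wild type ENL was found at 22 of the 37 carrier genes with H3K9ac (59.5%, interval 43.5 to 73.7), beside 49.7% of all such genes. Y78A had a peak at 17 of the 48 genes (35.4%, interval 23.4 to 49.6), beside 14.6% of all protein-coding genes. Wild type ENL had one at 22 (45.8%, interval 32.6 to 59.7), beside 28.6%. H3K9bhb lay at 17 (35.4%, interval 23.4 to 49.6), beside 23.8%, which falls inside that interval. H3K9cr lay at 1 (2.08%), beside 4.49%, and H3K9ac at 37 (77.1%, interval 63.5 to 86.7), beside 56.4%. No peak of any list came within 1 kb of 10 carrier genes (20.8%), beside 42.8% of all genes.

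**Figure D1:**
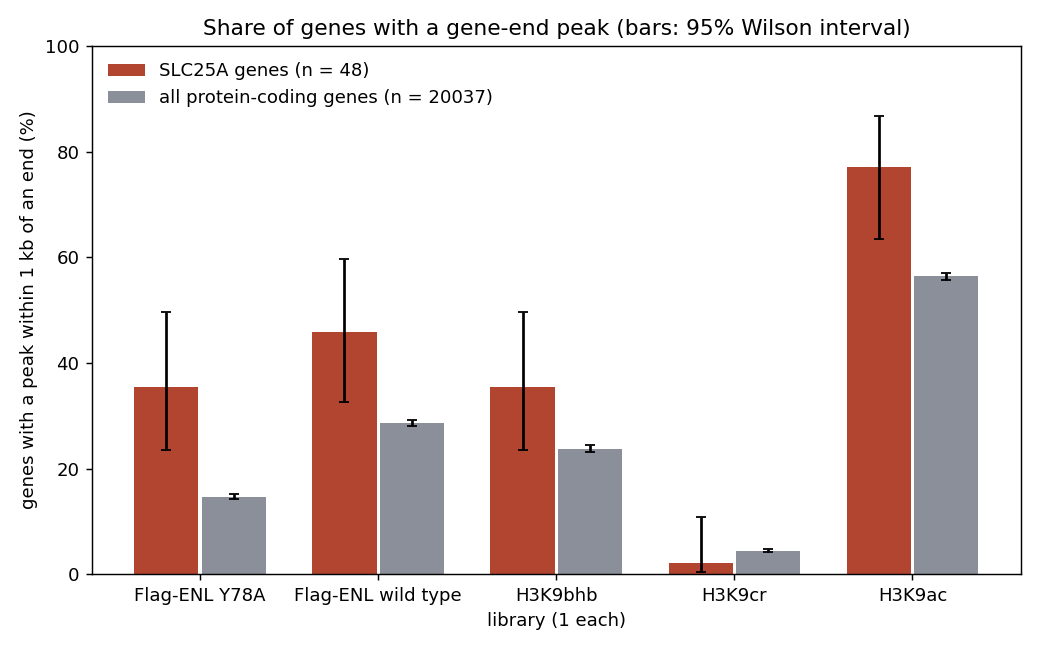
Share of genes with a peak within 1 kb of an end, in percent, for the 48 SLC25A genes (red) and all 20037 protein-coding genes (grey) in each library, with 95% Wilson intervals. The carrier share is above that of all genes in every library but H3K9cr, where 1 carrier gene had a peak. In H3K9bhb and H3K9cr the carrier interval includes the share of all genes.

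The numbers of occupied genes depend on the length of the lists. With each list limited to its 3852 strongest peaks by p, Y78A was at 13 carrier genes (27.1%), beside 10.7% of all genes, and wild type ENL at 11 (22.9%), beside 11.9%. H3K9bhb was then at 10 (20.8%), beside 11.4%, and H3K9ac at 13 (27.1%), beside 16.9%. At equal length the surplus of wild type over Y78A genes was not seen among the carriers. Over all genes the wild type share stayed higher, at 11.9% against 10.7%. The cut removes more peaks from the longer wild type list, and why the lists differ in length was not tested. Among genes with H3K9ac, Y78A was at 16 of 37 carrier genes (43.2%, interval 28.7 to 59.1), beside 25.6% of all such genes, wild type ENL at 22 (59.5%, interval 43.5 to 73.7), beside 49.7%. H3K9bhb was at 17 of them (45.9%, interval 31.04 to 61.6), beside 41.6%, and H3K9cr at 1 (2.70%), beside 7.78%. Among the 20 carrier genes with H3K9ac and no H3K9bhb, wild type ENL was at 7 (35.0%, interval 18.1 to 56.7), beside 23.8%, and among the 17 with both marks it was at 15 (88.2%, interval 65.7 to 96.7), beside 86.1%.

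The 48 genes fell into 9 combinations of peaks. The largest were 13 genes with Y78A, wild type ENL, H3K9bhb and H3K9ac, 13 with H3K9ac alone and 10 with no peak. Apart from the genes with no peak (20.8%, beside 42.8% of all genes), these combinations were not counted over all genes. Their sizes describe the members only. A further 5 genes (SLC25A4, SLC25A15, SLC25A35, SLC25A38 and SLC25A51) had wild type ENL and H3K9ac, and 2 (SLC25A5 and SLC25A44) had these with Y78A. SLC25A17 and SLC25A21 had H3K9bhb and H3K9ac without ENL. SLC25A40 had wild type ENL, H3K9bhb and H3K9ac, SLC25A41 had all 5 kinds of peak, and SLC25A45 had Y78A alone. Y78A without wild type ENL was at 1 carrier gene (2.08%), beside 0.404% of all genes. That gene was SLC25A45, whose wild type peak began 1002 bp from a gene end, just outside the window. All of Y78A, wild type ENL, H3K9bhb and H3K9ac were at 14 carrier genes (29.2%, interval 18.2 to 43.2), beside 12.5% of all genes. Every one of the 22 genes with wild type ENL had H3K9ac, beside 98.0% of all genes with wild type ENL. Of these 22 genes, 15 had H3K9bhb (68.2%, interval 47.3 to 83.6), beside 71.3%, and 1 had H3K9cr (4.55%), beside 14.4%. In the other direction, the 17 genes with H3K9bhb had Y78A at 14 (82.4%), beside 54.0%, wild type ENL at 15 (88.2%), beside 85.8%, H3K9cr at 1 (5.88%), beside 17.4%, and H3K9ac at 17, beside 98.6%.

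**Figure D2:**
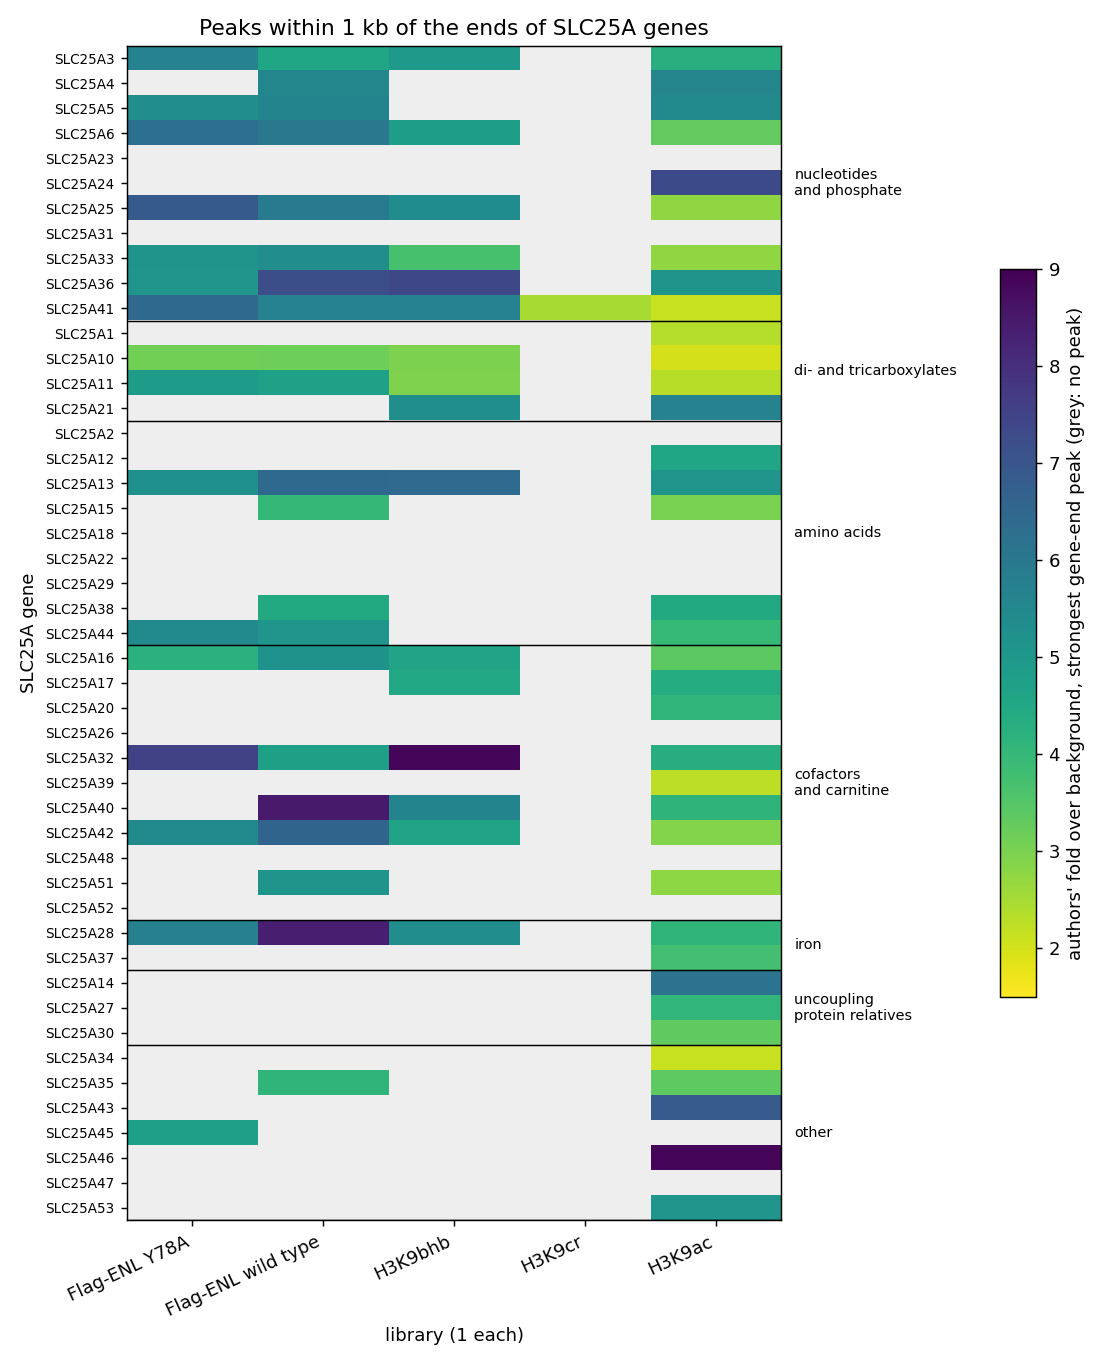
The authors' fold over background at the strongest gene-end peak of 47 SLC25A genes (rows, grouped by what the protein carries) in each library (columns, 1 library each), with grey for no peak. Genes with ENL peaks are spread over the other groups, while the 3 uncoupling protein relatives have H3K9ac only at their gene ends. Over all protein-coding genes 28.6% have a wild type ENL peak, and 3 genes are too few to set a group apart.

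Of the 22 genes with wild type ENL, 16 had a Y78A peak (72.7%, interval 51.8 to 86.8), beside 49.8% of all genes with wild type ENL. Among the 15 of these genes with H3K9bhb, 14 had a Y78A peak (93.3%, interval 70.2 to 98.8), beside 62.1% of all such genes. Among the 7 without H3K9bhb, 2 had one (28.6%, interval 8.22 to 64.1), beside 19.2%. Read the other way, 14 of the 16 carrier genes with both ENL proteins had H3K9bhb (87.5%), close to the 89.0% of all genes with both. Counted by peaks, a Y78A peak touched 15 of the 24 wild type peaks at carrier gene ends (62.5%, interval 42.7 to 78.8), beside 46.8% of all wild type gene-end peaks. It covered at least 50% of the length of 10, a count not made over all genes. H3K9bhb also touched 15 of these 24 peaks, beside 66.9%, and H3K9ac 23 (95.8%), beside 94.3%. Wild type ENL touched 17 of 18 Y78A peaks (94.4%), beside 96.2%, and 15 of 17 H3K9bhb peaks (88.2%), beside 83.7%.

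Where both proteins were present, their summits lay close together and held fewer fragments in Y78A. At the 16 genes with both, the closest summits were 0 to 285 bp apart, with a median of 54.5 bp, and the peaks overlapped at 15. The exception was SLC25A16, whose Y78A and wild type summits sat on either side of the gene end, 142 and 143 bp from it. Summit distances between libraries were not computed over all genes. The strongest Y78A summit held fewer fragments than the strongest wild type summit at 14 of the 16 genes (87.5%), beside 96.6% of the 2853 genes with both proteins. Of the exceptions, SLC25A44 has its strongest peaks at opposite gene ends, and where both proteins were present it had 21 fragments in Y78A and 23 in wild type ENL. The median ratio of Y78A to wild type fragments was 0.722, with a range of 0.463 to 1.54, beside 0.656 over all such genes. The most frequent background of the Y78A list was 0.841 times that of the wild type list, and its part in the lower fragment numbers was not tested. The authors' fold divides summit signal by local background, with a constant added to each. It was lower in Y78A at 8 of the 16 genes and higher at the other 8. Over the 2853 genes with both proteins, the fold was lower in Y78A at 1829 (64.1%). The median ratio of Y78A to wild type fold was 1.004 at the 16 carrier genes, beside 0.940 over all such genes.

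**Figure D3:**
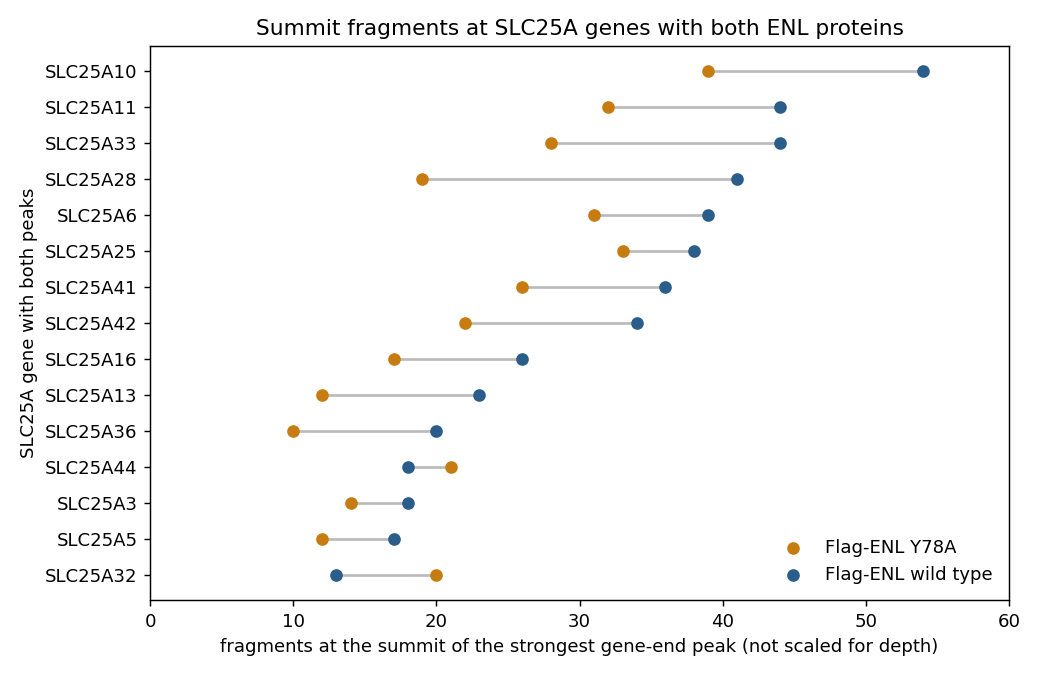
Fragments at the summit of the strongest gene-end peak (x axis, a number recovered from the deposited fold and p and not scaled for depth) at 15 of the SLC25A genes with both ENL proteins, for Y78A (orange) and wild type ENL (blue). Y78A is lower at 13 of these, and SLC25A32 and SLC25A44 are the exceptions.

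Among the genes with both proteins, SLC25A36, a carrier of pyrimidine nucleotides, had the largest wild type fold of those whose listed start lay at the peak. It reached 5.08-fold in Y78A, 7.21-fold in wild type ENL, 7.37-fold in H3K9bhb and 5.12-fold in H3K9ac. The summits held 10 fragments in Y78A (exact Poisson interval 4.80 to 18.4) and 20 in wild type ENL (interval 12.2 to 30.9), so the intervals overlapped. The wild type peak (hg38, chr3:140941597-140942022) had its summit 130 bp before the start. SLC25A40, a glutathione carrier, had the highest wild type fold of all members, 8.46, with 27 fragments (interval 17.8 to 39.3), and no Y78A peak. Its wild type peak (chr7:87876075-87876651) was also within 1 kb of DBF4, a cell cycle kinase regulator whose gene end lay 254 bp from the summit. H3K9bhb stood at 5.62-fold and H3K9ac at 4.11-fold there.

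The promoters of these genes are shown as strong wild type ENL sites at a listed start, SLC25A36 with and SLC25A40 without a Y78A peak. SLC25A28 had a higher wild type fold than SLC25A36, but away from its listed start, and SLC25A36 was taken in its place after the values were seen. Each is the 250 bases before the gene start, 5′ to 3′ on the gene's strand, from RefSeq (GRCh38.p14, the assembly also named hg38), with motif matches in capitals. SLC25A36 is chr3:140941586-140941835 on the plus strand and SLC25A40 is chr7:87876361-87876610 on the minus strand. The wild type peak of SLC25A40 covers the printed bases, but its summit lay outside them, 121 bp into the gene.
SLC25A36: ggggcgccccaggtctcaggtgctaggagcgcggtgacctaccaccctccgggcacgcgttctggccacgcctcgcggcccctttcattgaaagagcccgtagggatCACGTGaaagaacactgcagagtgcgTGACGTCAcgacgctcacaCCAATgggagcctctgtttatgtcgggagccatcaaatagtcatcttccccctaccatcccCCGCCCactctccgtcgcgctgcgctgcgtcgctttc
SLC25A40: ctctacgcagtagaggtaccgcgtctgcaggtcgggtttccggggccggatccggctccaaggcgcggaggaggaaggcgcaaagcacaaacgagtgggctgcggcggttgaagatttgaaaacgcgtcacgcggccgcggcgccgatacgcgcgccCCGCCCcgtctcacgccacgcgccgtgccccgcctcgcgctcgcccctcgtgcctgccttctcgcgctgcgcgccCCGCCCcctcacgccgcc
In SLC25A36 the capitals are an E-box (CACGTG), a cAMP response element or CRE (TGACGTCA), a CCAAT box and a GC box (GGGCGG or its complement). In SLC25A40 they are 2 GC boxes. The upstream bases were 62.8% G or C with 23 CpG sites in SLC25A36, and 72.8% with 42 CpG sites in SLC25A40.

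The nucleotide and phosphate carriers had the most genes with ENL of any substrate group, with Y78A at 7 of 11 (63.6%), wild type ENL at 8 (72.7%), H3K9bhb at 6 (54.5%), H3K9cr at 1 (9.09%) and H3K9ac at 9 (81.8%). The shares over all protein-coding genes, against which each group is to be read, were 14.6% for Y78A, 28.6% for wild type ENL, 23.8% for H3K9bhb, 4.49% for H3K9cr and 56.4% for H3K9ac. The cofactor and carnitine carriers had as many genes with H3K9bhb and H3K9ac. Among the nucleotide and phosphate carriers, the 4 ADP/ATP carrier genes, which exchange mitochondrial ATP for cytosolic ADP, each had a different combination of peaks. SLC25A6 had Y78A at 6.25-fold, wild type ENL at 5.99-fold, H3K9bhb at 4.82-fold and H3K9ac at 3.31-fold. SLC25A5 had Y78A at 5.29-fold, wild type ENL at 5.62-fold and H3K9ac at 5.45-fold, and its Y78A and wild type summits were at the same base, 160 bp before the start. SLC25A4, the form of heart and skeletal muscle, had wild type ENL at 5.56-fold and H3K9ac at 5.58-fold. SLC25A31, the form of the germ line, had no peak within 1 kb, and its nearest wild type peak began 7913 bp from a gene end. Summit fragments in wild type ENL were 39 at SLC25A6, 17 at SLC25A5 and 19 at SLC25A4, against 41, 40 and 50 in H3K9ac. The peaks of SLC25A6 were also within 1 kb of an end of LOC124900597, an annotated gene with no name. SLC25A6 lies in a region common to the X and Y chromosomes, whose reads can map to either, and its peaks were listed on X.

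The promoters of the 4 ADP/ATP carrier genes are shown because these genes have the same function and unlike peaks. They are given as above, with SLC25A6 on the minus strand of chrX:1392114-1392363, SLC25A5 on the plus strand of chrX:119468194-119468443, SLC25A4 on the plus strand of chr4:185143016-185143265 and SLC25A31 on the plus strand of chr4:127730150-127730399.
SLC25A6: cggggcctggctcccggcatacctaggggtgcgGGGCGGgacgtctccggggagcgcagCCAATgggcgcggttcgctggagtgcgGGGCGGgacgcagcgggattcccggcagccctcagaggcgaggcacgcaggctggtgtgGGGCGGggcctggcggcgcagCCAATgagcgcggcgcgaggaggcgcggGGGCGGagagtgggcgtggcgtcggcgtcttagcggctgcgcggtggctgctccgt
SLC25A5: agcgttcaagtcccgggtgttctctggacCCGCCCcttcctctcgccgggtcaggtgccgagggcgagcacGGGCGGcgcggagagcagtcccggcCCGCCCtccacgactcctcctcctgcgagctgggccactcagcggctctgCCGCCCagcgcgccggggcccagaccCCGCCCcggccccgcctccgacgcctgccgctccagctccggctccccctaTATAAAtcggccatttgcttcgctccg
SLC25A4: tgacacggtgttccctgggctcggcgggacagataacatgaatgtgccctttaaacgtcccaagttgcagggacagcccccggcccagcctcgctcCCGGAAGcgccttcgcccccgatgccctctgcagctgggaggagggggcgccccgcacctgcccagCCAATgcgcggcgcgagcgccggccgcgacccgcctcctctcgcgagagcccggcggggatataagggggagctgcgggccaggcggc
SLC25A31: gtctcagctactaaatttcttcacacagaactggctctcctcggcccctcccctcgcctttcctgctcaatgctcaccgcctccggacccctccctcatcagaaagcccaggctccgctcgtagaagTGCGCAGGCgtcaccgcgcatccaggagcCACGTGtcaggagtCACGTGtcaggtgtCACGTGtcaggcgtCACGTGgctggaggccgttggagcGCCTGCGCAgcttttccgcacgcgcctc
The capitals mark 4 GC boxes and 2 CCAAT boxes in SLC25A6, and 5 GC boxes and a TATA box (TATAAA) in SLC25A5. In SLC25A4, which has a wild type peak, they mark an ETS motif (CCGGAAG) and a CCAAT box and likewise no GC box. In SLC25A31 they mark 4 E-boxes and 2 NRF1 motifs (TGCGCANGC), and as in SLC25A4 no GC box. The upstream bases were 76.8% G or C in SLC25A6, 73.6% in SLC25A5, 71.6% in SLC25A4 and 63.2% in SLC25A31.

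Of the other genes in this group, SLC25A3, the phosphate carrier that supplies ATP synthesis, had Y78A at 5.67-fold, wild type ENL at 4.59-fold, H3K9bhb at 4.94-fold and H3K9ac at 4.30-fold. SLC25A33, the second pyrimidine nucleotide carrier, had Y78A at 5.12-fold, wild type ENL at 5.30-fold, H3K9bhb at 3.69-fold and H3K9ac at 2.74-fold. An inner site of SLC25A33, with its wild type summit 25756 bp into the gene, had 3.63-fold in Y78A, 6.97-fold in wild type ENL, 5.03-fold in H3K9bhb and 3.27-fold in H3K9ac. The ATP-Mg/phosphate carriers, which adjust the adenine nucleotide pool of the matrix, were mixed. SLC25A25 had Y78A at 6.87-fold, wild type ENL at 5.91-fold, H3K9bhb at 5.36-fold and H3K9ac at 2.75-fold. Its ENL and H3K9bhb peaks were also within 1 kb of an end of NAIF1, and the wild type summit stood at -30479 bp from the listed start. At the listed start wild type ENL reached 4.37-fold, while the nearest Y78A peak began 4583 bp and the nearest H3K9bhb peak 30253 bp away. SLC25A24 had H3K9ac alone, at 7.32-fold, and SLC25A23 had no peak.

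SLC25A41, the remaining ATP-Mg/phosphate carrier, was the only member with H3K9cr, and its peaks lay nearer to another gene. Y78A stood at 6.42-fold, wild type ENL at 5.66-fold, H3K9bhb at 5.69-fold, H3K9cr at 2.47-fold and H3K9ac at 2.12-fold. The wild type summit was 981 bp from an end of SLC25A41 and 245 bp from an end of KHSRP, which encodes an RNA-binding protein. The H3K9cr peak was the weakest of its list by p, ranked 3852 of 3852. Its fold of 2.47 was below the median of 3.81 over the 899 genes with H3K9cr, and its summit held 20 fragments, beside a median of 21. With only peaks nearer to a carrier gene than to any other protein-coding gene, a setting chosen after seeing the data, no member had H3K9cr.

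The carriers of di- and tricarboxylates had Y78A at 2 of 4 genes, wild type ENL at 2, H3K9bhb at 3, H3K9cr at 0 and H3K9ac at 4, beside 14.6%, 28.6%, 23.8%, 4.49% and 56.4% of all genes. SLC25A11, the 2-oxoglutarate/malate carrier of the malate-aspartate shuttle, had Y78A at 4.85-fold, wild type ENL at 4.70-fold, H3K9bhb at 2.95-fold and H3K9ac at 2.30-fold. Its ENL and H3K9bhb summits were nearer to an end of RNF167, a ubiquitin ligase gene. SLC25A10, the dicarboxylate carrier, had the lowest gene-end folds of any member with ENL, at 3.09-fold in Y78A and 3.17-fold in wild type ENL, but the most fragments of the strongest wild type gene-end peaks, 54. The Y78A summit there held 39. H3K9bhb was at 2.97-fold and H3K9ac at 1.97-fold. The background recovered at SLC25A10 was 11.9 fragments in Y78A and 16.4 in wild type ENL, beside medians of 2.95 and 3.66 over all genes with these peaks.

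SLC25A1, the citrate carrier that supplies acetyl groups for fatty acid and sterol synthesis, had H3K9ac alone at 2.32-fold with 60 fragments. Its nearest wild type peak began 52859 bp from a gene end. SLC25A21, a carrier of oxoadipate and related acids, had H3K9bhb at 5.26-fold and H3K9ac at 5.67-fold and no ENL peak, the nearest wild type peak beginning 357016 bp from an end. Its H3K9bhb and H3K9ac summits were 18 bp apart, 343 and 325 bp into the gene.

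The amino acid carriers had Y78A at 2 of 9 genes (22.2%), beside 14.6% of all genes, wild type ENL at 4 (44.4%), beside 28.6%, H3K9bhb at 1 (11.1%), beside 23.8%, and H3K9ac at 5 (55.6%), beside 56.4%. The aspartate/glutamate carriers, the other arm of the malate-aspartate shuttle, differed. SLC25A13, citrin, the form that predominates in liver, had Y78A at 5.25-fold, wild type ENL at 6.44-fold, H3K9bhb at 6.37-fold and H3K9ac at 5.08-fold. Its summits held 12 fragments in Y78A (interval 6.20 to 21.0) and 23 in wild type ENL (interval 14.6 to 34.5). SLC25A12, the form of brain and muscle, had H3K9ac alone at 4.58-fold, and its nearest H3K9bhb peak began 27984 bp away. SLC25A15, the ornithine carrier of the urea cycle, had wild type ENL at 4.00-fold and H3K9ac at 3.01-fold. SLC25A38, the glycine carrier needed for haem synthesis, had wild type ENL at 4.44-fold, 845 bp into the gene, and H3K9ac at 4.46-fold.

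SLC25A44, the branched-chain amino acid carrier, had wild type ENL at both ends, at 5.10-fold near its start and 4.30-fold at the other end. Y78A was present only at the other end, at 5.45-fold, where the summit was 83 bp from an end of PMF1, a kinetochore gene. SLC25A2, SLC25A18, SLC25A22 and SLC25A29, carriers of ornithine, glutamate and basic amino acids, had no peak within 1 kb of an end. SLC25A22 and SLC25A29 had H3K9ac inside the gene, at up to 2.21-fold and 3.34-fold.

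The carriers of cofactors and carnitine had Y78A at 4 of 12 genes (33.3%), beside 14.6% of all genes, wild type ENL at 6, beside 28.6%, H3K9bhb at 6, beside 23.8%, and H3K9ac at 9, beside 56.4%. SLC25A32, which carries folate or FAD, had the highest H3K9bhb and Y78A folds of all members, at 7.53 in Y78A, 4.74 in wild type ENL, 8.91 in H3K9bhb and 4.34 in H3K9ac. It was also a gene where Y78A had more summit fragments, 20 (interval 12.2 to 30.9), than wild type ENL, 13 (interval 6.92 to 22.2). DCAF13, which encodes a nucleolar protein, began 284 bp from the wild type summit. SLC25A42, a coenzyme A carrier, had Y78A at 5.45-fold, wild type ENL at 6.60-fold, H3K9bhb at 4.63-fold and H3K9ac at 2.91-fold. SLC25A16 stood at 4.20-fold in Y78A, 5.15-fold in wild type ENL, 4.62-fold in H3K9bhb and 3.38-fold in H3K9ac.

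SLC25A20, the carnitine/acylcarnitine carrier required for long-chain fatty acid oxidation, had H3K9ac alone, at 4.08-fold with 46 fragments. Its nearest wild type peak began 19869 bp away and its nearest H3K9bhb peak 108422 bp away. The glutathione carriers also differed, as SLC25A39 had H3K9ac alone at 2.23-fold while SLC25A40 carried the wild type peak described above. SLC25A51, the NAD carrier, had wild type ENL at 5.11-fold and H3K9ac at 2.77-fold. SLC25A17, a peroxisomal carrier, had H3K9bhb at 4.51-fold and H3K9ac at 4.37-fold without ENL. SLC25A26, SLC25A48 and SLC25A52, carriers of S-adenosylmethionine, choline and NAD, had no peak at an annotated gene end.

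Of the mitoferrins, which carry iron for haem and iron-sulphur clusters, SLC25A28 had Y78A at 5.72-fold, wild type ENL at 8.38-fold, H3K9bhb at 5.31-fold and H3K9ac at 4.10-fold. Summit fragments were 19 in Y78A (interval 11.4 to 29.7) and 41 in wild type ENL (interval 29.4 to 55.6), the lowest ratio among the 16 genes. That peak was also within 1 kb of ENTPD7 and had its wild type summit at position -38914 bp from the listed start of SLC25A28. Peaks at the listed start itself reached 6.41-fold in Y78A, 6.90-fold in wild type ENL and 6.14-fold in H3K9bhb, with H3K9ac present too and 31 and 51 fragments in Y78A and wild type ENL. SLC25A37, the mitoferrin of red cell precursors, had H3K9ac alone at its ends, at 3.74-fold, and a 4.93-fold wild type peak inside the gene.

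At their gene ends the uncoupling protein relatives SLC25A14, SLC25A27 and SLC25A30 had H3K9ac only, at 6.15-fold, 4.05-fold and 3.34-fold. Y78A, wild type ENL and H3K9bhb were at 0 of the 3, beside 14.6%, 28.6% and 23.8% of all genes. H3K9ac was at all 3, beside 56.4%. SLC25A30 also had an inner site with Y78A at 4.61-fold, wild type ENL at 5.40-fold and H3K9ac at 3.98-fold. The remaining group had Y78A at 1 of 7 genes (14.3%), beside 14.6% of all genes, and wild type ENL at 1 (14.3%), beside 28.6%. H3K9bhb was at 0 of these 7, beside 23.8%, and H3K9ac at 5 (71.4%), beside 56.4%. Within this group, H3K9ac alone was present at SLC25A34 (2.14-fold), SLC25A43 (6.84-fold), SLC25A46 (8.90-fold) and SLC25A53 (5.08-fold). SLC25A46, which encodes an outer membrane protein of mitochondrial dynamics, had the highest H3K9ac fold of all members. That summit was 383 bp from its listed start and 436 bp from TMEM232. Of the 37 members with H3K9ac, 14 had a peak also within 1 kb of an end of another protein-coding gene. The same held for 7 of 17 with Y78A, 8 of 22 with wild type ENL and 7 of 17 with H3K9bhb. Such shares were not computed over all genes, so these counts do not set the carrier genes apart. SLC25A35 had wild type ENL at 4.08-fold and H3K9ac at 3.36-fold. SLC25A47, a carrier largely restricted to liver, had no peak at its ends, and a 2.32-fold H3K9ac peak inside the gene.

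For SLC25A45 and SLC25A26 the call turned on where the annotated gene ends lie. The Y78A peak of SLC25A45 began 970 bp from a gene end, just inside the window, and its wild type peak 1002 bp away, just outside, with folds of 4.76 and 4.80. Both lay at the listed start, together with H3K9bhb at 4.55-fold and H3K9ac at 2.23-fold, so that 4 of the 5 lists had a peak at that start. The summits there held 65 fragments in Y78A and 85 in wild type ENL. The annotated ends of SLC25A26 were also far from its listed start, where Y78A stood at 5.76-fold, wild type ENL at 6.43-fold, H3K9bhb at 5.60-fold and H3K9ac at 7.68-fold. The wild type member nearest the inner side of the window edge was SLC25A41, 621 bp from an end at 5.66-fold, and the Y78A member nearest its outer side was SLC25A23, 10621 bp away at 6.42-fold, by the peak listed above for SLC25A41. With listed starts counted beside gene ends, a setting chosen after seeing the data, Y78A was at 18 carrier genes, beside 15.2% of all genes, and wild type ENL at 24, beside 29.6%. H3K9bhb was then at 19, beside 24.6%, H3K9cr at 1, beside 4.75%, and H3K9ac at 39, beside 58.1%.

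Peaks at carrier genes were of ordinary strength for gene-end peaks. The median fold of the strongest peak was 5.29 in Y78A over 17 genes, beside 5.31 over all 2934 genes with a Y78A peak. It was 5.23 in wild type ENL over 22 genes, beside 5.24, and 4.94 in H3K9bhb over 17 genes, beside 5.06. In H3K9ac it was 4.05 over 37 genes, beside 3.84. Median widths were 342 bp in Y78A, 505.5 bp in wild type ENL, 452 bp in H3K9bhb and 962 bp in H3K9ac, beside 382, 457.5, 420 and 976 bp over all genes with those peaks.

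ENL and H3K9bhb summits lay before the listed start more often than after it, and H3K9ac summits after it, as over all protein-coding genes. Among all peaks with a summit within 1 kb of the listed start of a carrier gene, 8 of 13 Y78A summits, 14 of 20 wild type summits and 8 of 14 H3K9bhb summits lay upstream, with medians of -135, -109.5 and -96.5 bp. Of 35 H3K9ac summits 11 lay upstream, with a median of 132 bp into the gene. Counting only peaks within 1 kb of an annotated gene end, 7 of 11 Y78A, 12 of 16 wild type, 7 of 11 H3K9bhb and 10 of 31 H3K9ac summits lay upstream. Over all protein-coding genes with a listed start the medians were -123, -104, -105 and 75 bp. The upstream shares over these genes were 69.0% in Y78A, 66.0% in wild type ENL, 63.8% in H3K9bhb and 38.8% in H3K9ac. At the 15 genes with both, H3K9bhb and wild type summits were at most 257 bp apart, with a median of 44 bp. At the 22 genes with wild type ENL and H3K9ac the closest summits were up to 973 bp apart, with a median of 119 bp. These distances have no value over all genes beside them.

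**Figure D4:**
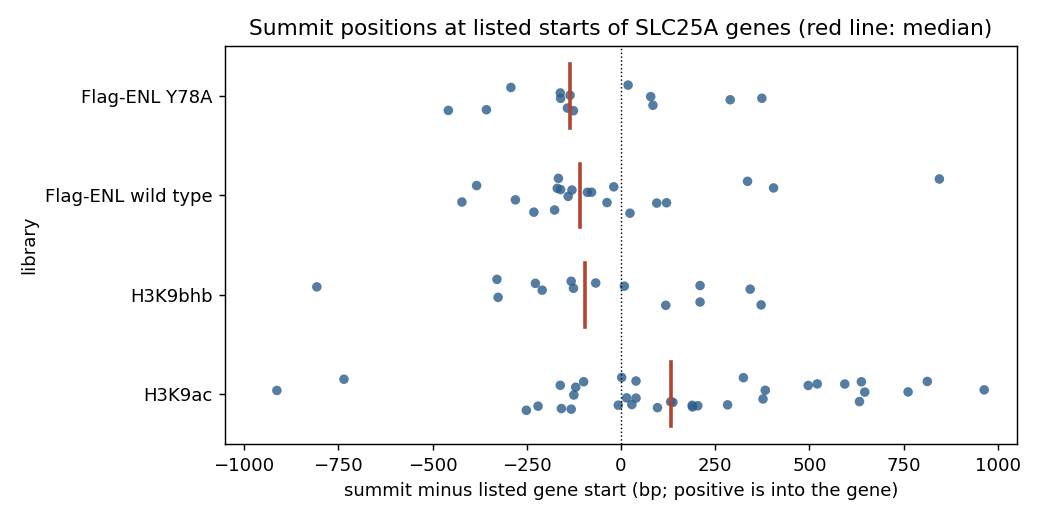
Summit position relative to the listed start (x axis, bp, positive into the gene) for every peak at SLC25A genes whose summit lay within 1 kb of that start, by library, with the median as a red line. The median is -135 bp in Y78A, -109.5 bp in the wild type list, -96.5 bp in H3K9bhb and 132 bp in H3K9ac, and H3K9cr had no such peak.

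A promoter of 300 bases, 250 before and 50 after the start, was listed for 40 of the 48 genes. A wild type peak covered part of it in 18 (45.0%), beside 26.6% of the 15842 listed promoters. Y78A covered part of 12, beside 13.3%, H3K9bhb 13 (32.5%), beside 21.9%, H3K9cr 0, beside 3.38%, and H3K9ac 29 (72.5%), beside 51.5%. The 18 with wild type ENL had a median of 69.8% G or C and 34 CpG sites, and the 22 without had 65.3% and 20.5. Over all promoters the values were 66.3% and 28 with a wild type peak and 60.7% and 18 without. Short letter strings were searched on both strands, those named above and the YY1 motif AAGATGGC, and no matches of different motifs shared bases in the carrier promoters. The CCAAT box was in 11 of the 18 promoters with a wild type peak (61.1%) and in 8 of the 22 without (36.4%), beside 45.7% and 33.0% over all promoters. The ETS motif was in 1 of 18 (5.56%) and 7 of 22 (31.8%), beside 22.9% and 11.1%. The NRF1 motif was in 1 of 18 (5.56%) and 2 of 22 (9.09%), beside 12.2% and 3.91%, and the TATA box in 2 of 18 (11.1%) and 1 of 22 (4.55%), beside 4.56% and 11.5%. For the ETS, NRF1 and TATA motifs the order was the reverse of that over all promoters. The YY1 motif was in 2 of 18 (11.1%) and 0 of 22, beside 6.63% and 2.92%, and the E-box in 4 of 18 (22.2%) and 3 of 22 (13.6%), beside 10.6% and 8.26%. The CRE was in 3 of 18 (16.7%), at SLC25A25, SLC25A33 and SLC25A36, and in 0 of 22, beside 3.78% and 2.17%. The GC box was in 13 of 18 (72.2%) and 15 of 22 (68.2%), beside 78.3% and 51.3%. With so few promoters a count of 1 moves these shares by several points, and a match does not show binding.

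Related genes under other names were examined beside them. Of 5 family members with other symbols, UCP2 had Y78A at 4.75-fold, wild type ENL at 4.86-fold, H3K9bhb at 4.60-fold and H3K9ac at 3.28-fold. MTCH2, an outer membrane insertase, had wild type ENL at 6.47-fold and H3K9ac at 4.08-fold, MTCH1 had H3K9ac at 3.71-fold, and UCP1 and UCP3, the forms of brown fat and muscle, had no peak. Of 21 other mitochondrial transport genes, 6 had Y78A (28.6%), beside 14.6% of all genes, 11 wild type ENL (52.4%), beside 28.6%, 9 H3K9bhb (42.9%), beside 23.8%, 1 H3K9cr (4.76%), beside 4.49%, and 20 H3K9ac (95.2%), beside 56.4%. Both subunits of the pyruvate carrier had wild type ENL, MPC1 at 6.17-fold without Y78A and MPC2 at 6.65-fold with Y78A at 5.09-fold. As a check of the cell line, 7 of 10 hepatocyte marker genes had wild type ENL, beside 28.6% of all genes, and 7 had H3K9ac, beside 56.4%. Of 8 genes of other tissues 0 had either ENL protein and 4 had H3K9ac, near the share of all genes. The defining liver genes ALB, AFP and TTR had no gene-end peak in any list.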

How the data were processed

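Peak lists of 5 CUT&Tag libraries of HepG2 cells were used, 1 per group, grouped by title. Per the file, peak names in the list labelled H3K9ac begin with ENL1, and the label was kept. Per the submitters' processing notes, the tools were FastQC, Bowtie2, MACS2 and deepTools and the build hg38, with no settings. The sources used here name no control library, filter or read total. In the deposited lists, fold is a ratio of summit signal over local background, taken here as having 1 added to each. The deposited p and q are on a −log10 scale, and 10 times −log10 q gives the deposited score. The lowest −log10 q was 2.04 in Y78A, 2.05 in wild type ENL, 2.02 in H3K9bhb, 1.34 in H3K9cr and 1.31 in H3K9ac, so the lists were not cut alike and folds were compared as values only. Lists held 5422, 11394, 9176, 3852 and 31493 peaks on standard chromosomes.

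Peaks were joined to RefSeq genes (GRCh38.p14) when at least 1 bp lay within 1000 bp of either gene end. The listed start came from the RefSeq promoter table. Summit fragments are the whole number that gives the deposited fold and p with a Poisson background, recovered for at least 99.98% of peaks within a relative tolerance of 3e-05. The depth of the libraries is unknown. Shares have Wilson intervals, and fragment numbers exact Poisson intervals, for counting error only. On simulated data the fragment number was right for 100% of 1567 peaks, and gene calls differed from bedtools 2.31.1 for 0 of 20037 genes. Python 3.11.15, pandas 2.3.3 and scipy 1.17.1 were used.

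The members and lists were chosen with earlier results of these data known. Counts cover all members, and the values of 1 member are not reported here. Full values were given for the highest folds, for genes lacking a mark, and for the ADP/ATP, aspartate/glutamate, carnitine, citrate and liver carriers. For the strongest site with Y78A, the promoter printed is that of SLC25A36 in place of SLC25A28, whose listed start is not at the peak, a change made after the values were seen. Protein sequences were not used here. Alternatives were other windows, the listed start, summits, a −log10 q of at least 5, lists of equal length and stricter overlap.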

Additional observations from a re-analysis of the deposited data

How the results depend on the processing

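No paired analysis was possible because each group has 1 library and the labels give no replicate numbers, and no test was made. Of 75 values recomputed under alternatives, 66 stayed within 1.5 times the count, or inside the interval of the share, and 9 did not. At equal list length the members with a peak numbered 11 for wild type ENL, 10 for H3K9bhb and 13 for H3K9ac, from the shorter lists alone. The H3K9cr count, 1, became 0 within 500 bp of gene ends, at listed starts, with a −log10 q of at least 5 and with peaks nearer to the member only, and 2 with whole genes. The share of wild type peaks overlapped by Y78A was 41.7% when 50% of the peak had to be covered, and 61.1% to 75.0% of wild type genes had Y78A over the alternatives. Counts over the alternatives were 12 to 19 for Y78A, 11 to 26 for wild type ENL, 10 to 19 for H3K9bhb and 13 to 42 for H3K9ac. At unknown depth, a missing peak means only that none was called.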
